A study of Mus musculus with 10 samples.

Results

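A set of 10 imprinted genes outside the Dlk1-Dio3 cluster was followed across sorted mouse embryonic stem (ES) cells: Cdkn1c, Grb10, Igf2r, Phlda2, Igf2, Peg10, Mest, Peg3, Sgce and Snrpn. Rows were taken by gene symbol, and 9 of the 10 genes had a row of that symbol among the 32361 rows of the deposited table. All 9 reached 1 FPKM (a read-fragment level corrected for transcript length and for the number of mapped fragments) in at least 1 fraction and were among the 13595 rows compared. No row carries the symbol Snrpn. The row named Snurf runs over chromosome 7 (mm10, 59982501 to 60450177), the span that RefSeq gives to Snrpn, whose transcript is bicistronic with Snurf. Its values are given apart and are not counted among the 9.

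All cells were E14Tg2a.4 mouse ES cells of 2 reporter lines, separated by fluorescence-activated sorting. One line carried knock-in reporters at both Esrrb and Tbx3, each with its own fluorescent protein. It gave an Esrrb-negative, Tbx3-negative fraction (double-negative), an Esrrb-positive, Tbx3-negative fraction (single-positive) and an Esrrb-positive, Tbx3-positive fraction (double-positive). In the other line a piggyBac transgene reports the activity of a Zscan4c promoter fragment, which marks a rare state resembling the 2-cell embryo, and sorting gave a Zscan4c-negative and a Zscan4c-positive fraction, called Zscan4-negative and Zscan4-positive here. Each of the 5 fractions had 2 libraries, taken on separate days, but the deposited values hold 1 number per gene and fraction. The spread between libraries and the read depth are therefore unknown, and no value below has an error or a test. A difference is that of log2(FPKM + 1), and a gene counts as higher or lower only past 2-fold on that scale. Where 5 levels follow each other, their order is double-negative, single-positive, double-positive, Zscan4-negative, Zscan4-positive.

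Imprinted genes are expressed mainly from the allele of 1 parent, set by DNA methylation laid down in egg or sperm. Many of them act on growth of the embryo and placenta, with maternally expressed genes such as Cdkn1c, Grb10, Igf2r and Phlda2 tending to restrain it and paternally expressed genes such as Igf2, Peg10, Mest and Peg3 tending to promote it or to build the placenta. In cultured ES cells imprints are known to be lost or altered in some lines and clones. The values here sum both alleles, so they give levels and not allelic use.

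Markers of ES cells and of other cell types were read in the same columns, since RNA of other cells may bear on the values below. Which cells the fibroblast and T-lineage transcripts came from was not tested. Core ES cell genes, among them Pou5f1 and Sox2, were present in all 5 fractions, with all 5 listed genes at 1 FPKM or more in each. Esrrb was at 43.3, 177, 243, 203 and 233 FPKM in the 5 fractions. Fibroblast markers such as Col1a1 were abundant in part of the columns. Their 16 members summed to 2134, 1510, 36.4, 30.6 and 43.6 FPKM, so that both Tbx3-negative fractions stood far above the rest. The 13 T-lineage markers summed to 569, 406, 36.9, 25.6 and 23.0 FPKM. None of the fibroblast or T-lineage markers was at 0 in any fraction of the Esrrb and Tbx3 line. In each Zscan4 fraction 1 fibroblast marker and no T-lineage marker was at 0. Of the 7 primitive endoderm markers, 2 reached 1 FPKM in double-negative cells, and their sum was 12.4 FPKM there and 1.99 to 6.70 FPKM elsewhere. The 8 trophectoderm markers summed to 18.3 FPKM in double-negative and 47.2 to 60.4 FPKM in the other fractions, where most of it came from Tfap2c, which naive ES cells also express.

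Promoter sequences from RefSeq (GRCm38.p6, the assembly that mm10 names) matched 7 of the 10 genes, with 16 windows of 300 bases in all, each from 250 bases before to 50 bases after a transcript start. The windows shown are those of Mest, which differed between the reporter lines, of Grb10, which was lower with Esrrb, and of Phlda2, which ran the opposite way. Capitals mark TGCCGC or its reverse complement GCGGCA, the core recognised by ZFP57, a zinc finger protein that maintains imprints. Sequences read from 5′ to 3′ on the gene's strand.
Mest, upstream start, chr6:30733256-30733555, plus strand: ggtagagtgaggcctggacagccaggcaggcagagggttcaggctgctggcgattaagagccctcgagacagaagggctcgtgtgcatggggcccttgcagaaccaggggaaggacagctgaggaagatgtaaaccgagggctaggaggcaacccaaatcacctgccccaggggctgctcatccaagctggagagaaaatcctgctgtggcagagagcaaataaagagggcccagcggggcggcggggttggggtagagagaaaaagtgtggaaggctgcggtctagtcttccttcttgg
Mest, downstream start, chr6:30737800-30738099, plus strand: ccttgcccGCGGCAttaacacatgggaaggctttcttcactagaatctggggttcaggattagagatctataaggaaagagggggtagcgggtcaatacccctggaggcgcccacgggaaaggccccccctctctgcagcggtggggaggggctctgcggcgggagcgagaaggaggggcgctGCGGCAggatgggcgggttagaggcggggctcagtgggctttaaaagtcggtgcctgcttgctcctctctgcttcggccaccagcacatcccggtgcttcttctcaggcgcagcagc
Grb10, chr11:12037371-12037670, minus strand: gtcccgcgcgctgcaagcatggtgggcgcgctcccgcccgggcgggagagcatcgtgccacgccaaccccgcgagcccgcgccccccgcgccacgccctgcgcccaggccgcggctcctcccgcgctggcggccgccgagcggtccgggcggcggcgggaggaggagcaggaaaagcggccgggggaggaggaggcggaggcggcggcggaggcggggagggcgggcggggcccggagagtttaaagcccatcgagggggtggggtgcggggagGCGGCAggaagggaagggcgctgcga
Phlda2, chr7:143502475-143502774, minus strand: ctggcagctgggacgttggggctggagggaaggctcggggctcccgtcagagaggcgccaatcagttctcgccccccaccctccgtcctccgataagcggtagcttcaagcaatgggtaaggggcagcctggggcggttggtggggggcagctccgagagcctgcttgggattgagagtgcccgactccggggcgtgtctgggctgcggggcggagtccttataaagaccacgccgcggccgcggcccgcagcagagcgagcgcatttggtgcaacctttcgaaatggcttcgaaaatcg

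The ZFP57 core was found 2 times in the downstream Mest window, 1 time in the Grb10 window shown and in neither of the other windows shown. Searched on both strands, it is held by 11.6% of 32851 RefSeq promoter windows outside chromosome 18. The Grb10 window holds 45 CpG dinucleotides, more than in 98.1% of those windows. The Phlda2 window holds 26, the downstream Mest window 17 and the upstream Mest window 8, where the median window holds 7. The ESRRB core AAGGTCA, held by 4.72% of windows, and the T-box motif AGGTGTGA, held by 1.28%, were searched the same way, and neither occurs in any of the 16 windows. GC boxes (GGGCGG), which can share letters with a ZFP57 core, were counted 5 times in the Grb10 window, 2 times in the Phlda2 window and 1 time in each Mest window, and 35.7% of windows hold at least 1. The YY1 core GCCATNTT, held by 6.05% of windows, occurs in none of the 16. These matches describe the letters of the windows only.

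Levels differed widely among the 9 genes, and so did their variation over the fractions. Peg10 reached the second highest level of the 9 in any fraction, 98.5 FPKM, and Phlda2 the highest, 99.0 FPKM. Sgce and Igf2 were at 8.07 and 15.9 FPKM at most. The ratio of the highest to the lowest fraction ran from 1.22 for Peg3 to 25.0 for Mest. Over the 3 fractions of the Esrrb and Tbx3 line the median range of the 9 genes was 1.23 (log2), against 0.36 over all rows compared. Between the 2 Zscan4 fractions it was 0.33, against 0.18 over all rows. Within the Esrrb and Tbx3 line 5 of the 9 genes had a range of at least 2-fold, where 16.5% of all rows had one: Cdkn1c, Grb10, Igf2, Peg10 and Sgce.

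**Figure D1:**
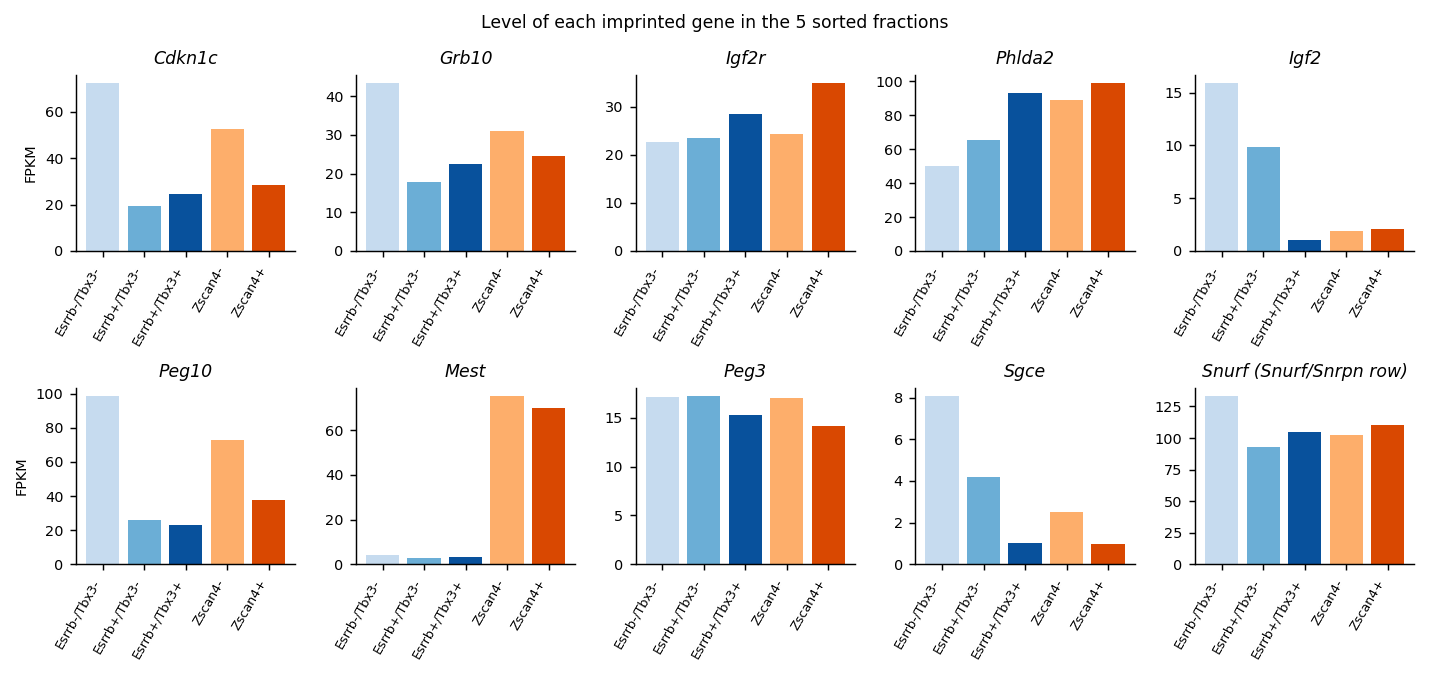
FPKM of the 9 imprinted genes and of the Snurf row, which covers Snrpn, in each of the 5 sorted fractions (1 deposited value per fraction, no error bars; bars start at 0 and each panel has its own scale). Peg10, Cdkn1c and Grb10 are highest in Esrrb-/Tbx3- cells, Mest is high in both Zscan4 fractions alone, and Igf2 and Sgce are highest in Esrrb-/Tbx3- cells followed by Esrrb+/Tbx3- cells.

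Cdkn1c, Grb10 and Peg10 were lower once the Esrrb reporter was on. Among the growth restrainers, Cdkn1c, which encodes the cyclin-dependent kinase inhibitor p57, was at 72.5, 19.3, 24.7, 52.4 and 28.5 FPKM in the 5 fractions. Grb10, an adaptor that dampens insulin and IGF receptor signalling, was at 43.4, 17.9, 22.5, 31.0 and 24.5 FPKM. Peg10, a gene derived from a retrotransposon and needed to form the placenta, was at 98.5, 25.8, 23.2, 73.1 and 37.6 FPKM. All of these had their highest level in double-negative cells, the next in Zscan4-negative and the third in Zscan4-positive cells, with both Esrrb-positive fractions lowest. That order, taken from these 3 of the 9 genes themselves, was found in 1.59% of all rows. Its count among the 9 was therefore fixed beforehand and is a description only. Esrrb RNA was also high in the Zscan4 fractions, at 203 FPKM in negative and 233 FPKM in positive cells against 177 FPKM in single-positive cells. A link of these genes to Esrrb was not tested.

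In the Esrrb step, single-positive minus double-negative cells, the difference was -1.89 for Peg10, -1.86 for Cdkn1c and -1.23 for Grb10. These were the 3 of 9 genes at least 2-fold lower, where 1.43% of all rows were, and none was at least 2-fold higher, where 1.82% of rows were. Peg10 held place 34 and Cdkn1c place 38 from the lowest of the 13595 rows. The median of the 9 genes was -0.63, against -0.02 over all rows. In these sorted populations, fewer cells of a type and less RNA per cell cannot be told apart.

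Fibroblast transcripts were also higher in double-negative than in single-positive cells. Relative to double-negative cells, the single-positive level was 0.482 to 0.736 over the 15 fibroblast markers at 1 FPKM or more, with a median of 0.706, and 0.708 for their sum. This ratio was lower for Peg10 (0.262), Cdkn1c (0.266) and Grb10 (0.412) than for any of these fibroblast markers, and than for any of the 12 T-lineage markers at that level, whose lowest ratio was 0.462. In Zscan4-negative cells, where the fibroblast sum was 30.6 FPKM against 36.4 in double-positive cells, Peg10 was 3.15 times, Cdkn1c 2.13 times and Grb10 1.38 times its double-positive level. That comparison crosses the reporter lines, so line and fraction cannot be told apart in it. How much fibroblast or T-lineage RNA adds to the differences of these genes was not tested.

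With Tbx3 these genes differed little further. Double-positive minus single-positive differences were -0.15 for Peg10, 0.34 for Cdkn1c and 0.32 for Grb10. Across the whole line, double-positive minus double-negative, Peg10 differed by -2.04 and Cdkn1c by -1.52, while Grb10, at -0.92, stayed inside 2-fold. Grb10 passed it, at -1.03, once the columns were scaled to equal FPKM totals, which itself moved the median of all rows by -0.11. In the Zscan4 sort all had lower values in positive cells without reaching 2-fold, with differences of -0.94 for Peg10, -0.86 for Cdkn1c and -0.33 for Grb10. None of the 9 genes passed 2-fold in that sort in either direction, where 3.46% of all rows were higher and 0.875% lower.

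**Figure D2:**
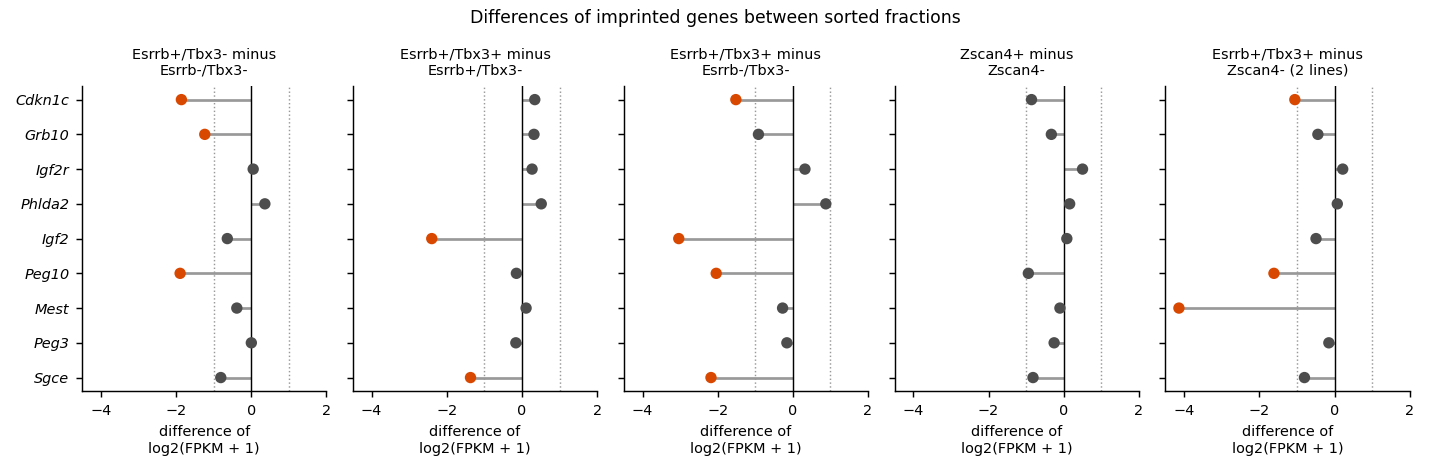
Difference of log2(FPKM + 1) for each of the 9 genes in 5 comparisons (points; dotted lines mark 2-fold, orange points lie at or beyond it; no error bars because each fraction has 1 value). Peg10, Cdkn1c and Grb10 lie beyond 2-fold in the Esrrb step, Igf2 and Sgce in the Tbx3 step, and Mest stands at -4.14 in the comparison between the reporter lines.

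The other growth restrainers ran the opposite way and by less. Phlda2, which limits growth of the placenta, was at 50.4, 65.1, 93.2, 88.7 and 99.0 FPKM. Its level in double-positive cells exceeded that in double-negative cells by 0.88, the highest positive difference of the 9 genes, though below 2-fold. Igf2r, the receptor that carries IGF2 to lysosomes, was at 22.6, 23.5, 28.5, 24.4 and 34.9 FPKM. Both genes were lowest in double-negative and highest in Zscan4-positive cells. The differences between neighbouring levels of Igf2r were 0.05 to 0.28, and those of Phlda2 0.07 to 0.44. Airn, the noncoding RNA that runs antisense through Igf2r, was at 1.27 and 0.786 FPKM in double-negative and single-positive cells and at 0.0234 to 0.192 FPKM elsewhere. The strand setting of the authors' counting is not given in the sources used here, so reads of overlapping antisense genes may not be kept apart.

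By parental origin, 2 of the 4 maternally expressed genes were lower in the Esrrb step and 2 had small positive differences. Of the 5 paternally expressed ones with a row 1 was lower, where 1.43% of all rows were. In the Tbx3 step none of the 4 maternally expressed genes passed 2-fold, with all 4 differences above 0. Of the 5 paternally expressed genes 2, Igf2 and Sgce, were lower, where 6.94% of all rows were, and 1 had a difference above 0. From double-negative to double-positive cells differences were above 0 for 2 of 4 and 0 of 5 genes. The median over all rows was 0.01 in the Tbx3 step and -0.02 from double-negative to double-positive cells. The Snurf row, which covers the paternally expressed Snrpn and is not counted here, differed by 0.16 and -0.35 in these comparisons. With 4 and 5 genes, and without the share of all rows above 0, these counts are descriptions only. Cdkn1c and Phlda2 lie 40.5 kb apart in the same imprinted cluster on chromosome 7 (mm10, 143458339 to 143461050 and 143501548 to 143502524, both on the minus strand). Their differences from double-negative to double-positive cells were -1.52 and 0.88. Kcnq1ot1, the noncoding RNA that silences this cluster on the paternal allele, was listed below 0.1 FPKM in all 5 fractions.

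Igf2, Sgce and the neighbour of Igf2, H19, differed mainly in the Tbx3 step. Igf2, which encodes an insulin-like growth factor of the embryo, was at 15.9, 9.89, 1.06, 1.90 and 2.07 FPKM. H19, a noncoding RNA 72.6 kb away that shares control elements with Igf2 and is expressed from the other allele, was at 146, 102, 2.16, 1.71 and 2.07 FPKM. Both were high in the same 2 fractions and low in the other 3. Sgce, which encodes a sarcoglycan of the cell membrane, was at 8.07, 4.18, 1.00, 2.49 and 0.981 FPKM.

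Double-positive minus single-positive differences were -2.40 for Igf2 and -1.37 for Sgce. They were the 2 of 9 genes at least 2-fold lower, where 6.94% of all rows were, and none was higher, where 0.346% of rows were. From double-negative to double-positive cells Igf2 differed by -3.04 and Sgce by -2.18. With Peg10 and Cdkn1c, 4 of the 9 genes were at least 2-fold lower over the whole line, against 12.2% of all rows, and none was higher, against 3.81%.

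Like the fibroblast markers, Igf2 and H19 were higher in both Tbx3-negative fractions than in the rest. Outside those fractions Igf2 kept a larger part of its double-negative level than the fibroblast sum did. In the Esrrb step the ratio of levels was 0.622 for Igf2 and 0.700 for H19, where those markers ran from 0.482 to 0.736. The low end was Twist1 alone, and the next lowest marker was Prrx1 at 0.677. Igf2 thus lay below all of these markers but Twist1, and H19 lay among them. Relative to double-negative cells, double-positive cells held 0.0667 of the Igf2 level and 0.0171 of the summed fibroblast level. In Zscan4-negative and Zscan4-positive cells Igf2 was at 0.120 and 0.130 in this ratio and the fibroblast sum at 0.0143 and 0.0204. The summed T-lineage level of double-positive cells was 0.0647 of the double-negative one, but Lck alone made up 20.9 of its 36.9 FPKM. Lck was at 66.1 FPKM in double-negative cells. Gzma, the highest T-lineage marker there, was at 223 FPKM in double-negative and 2.78 FPKM in double-positive cells. Sgce had a ratio of 0.518 in the Esrrb step, also below all of these fibroblast markers but Twist1. Double-positive cells held 0.124 of its double-negative level. The part of fibroblast or T-lineage RNA in these differences was not tested.

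**Figure D3:**
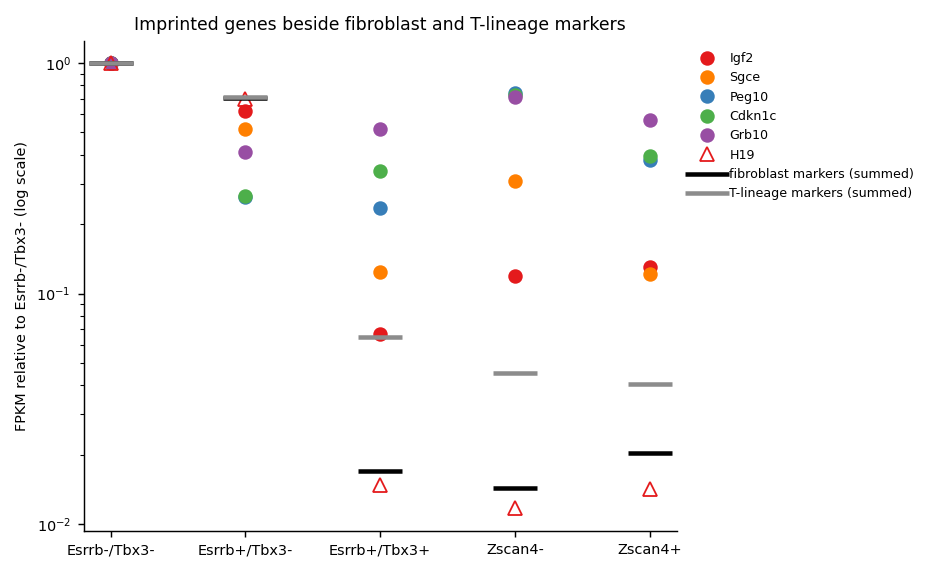
FPKM relative to Esrrb-/Tbx3- cells (log scale) for 5 imprinted genes and H19, beside the summed levels of 16 fibroblast and 13 T-lineage markers (horizontal bars), by fraction; points of Peg10 and Cdkn1c overlap in 3 fractions. Peg10, Cdkn1c and Grb10 lie below the marker bars in Esrrb+/Tbx3- cells and far above them in the other 3 fractions, while Igf2 and H19 lie near them in Esrrb+/Tbx3- cells and H19 also near the fibroblast bars elsewhere.

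Peg10 and Sgce are transcribed away from each other from starts that lie 99 bases apart in GENCODE M21, on chromosome 6 (deposited mm10 coordinates, Peg10 4747306 to 4760516, plus strand; Sgce 4674350 to 4747204, minus strand), and both are paternally expressed. Their profiles had the highest level in double-negative cells and a higher level in Zscan4-negative than Zscan4-positive cells in common. They differed in single-positive cells, where Peg10 was at 0.262 and Sgce at 0.518 of the double-negative level, and in the Tbx3 step, where the differences were -0.15 and -1.37. In the Zscan4 sort, where fibroblast sums were 30.6 and 43.6 FPKM, the differences were -0.94 and -0.82. With a pseudocount of 0.1 FPKM the Sgce difference there was -1.26, past 2-fold, since its levels are low.

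Mest, an imprinted gene of the hydrolase fold family that promotes embryonic growth, differed between the reporter lines and hardly within them. It was at 4.22, 3.01 and 3.32 FPKM in the Esrrb and Tbx3 line and at 75.3 and 70.1 FPKM in the Zscan4 line. The lines did not overlap. The 6 differences between a fraction of the Esrrb and Tbx3 line and a fraction of the Zscan4 line ran from -4.25 to -3.77, while the range was 0.38 within the first line and 0.10 within the second. Mest in Zscan4-negative cells was 22.7 times its level in double-positive cells. Its differences were -0.38 in the Esrrb step, 0.11 in the Tbx3 step and -0.10 in the Zscan4 sort.

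The line difference set Mest apart from the other 8 genes, whose fractions overlapped between the lines. Over all rows, 24.5% had lines that did not overlap, but 0.103%, or 14 rows, were apart by at least 2-fold, and Mest was 1 of them. Because fibroblast and T-lineage RNA was high in double-negative and single-positive cells, the lines were also compared without them. With double-positive cells alone for their line, Cdkn1c, Grb10, Igf2, Mest and Peg10 lay outside the range of the Zscan4 fractions, 5 of 9 genes against 63.1% of all rows. Without the double-negative fraction alone 4 of 9 did, against 36.6%. Mest kept its distance in both, at -4.04. The share of the variation over the 5 fractions that lay between the lines was 99.6% for Mest, 39.8% for Phlda2, 27.6% for Igf2 and 25.7% for Igf2r. It was 21.3% for Sgce, 14.1% for Peg3, 6.34% for Peg10, 2.81% for Cdkn1c and 0.88% for Grb10, against a median of 26.1% over all rows. With 5 values per gene these shares are descriptions only.

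The deposited Mest row spans chromosome 6 (mm10, 30733506 to 30896794) because it is merged with Copg2, which runs from the other strand and overlaps the end of Mest by 912 bases in GENCODE M21. Copg2 has a row of its own and was at 24.3, 26.0, 26.1, 25.4 and 23.6 FPKM. It shows no line difference of the kind seen for Mest. Both Mest starts whose windows are shown above lie in the deposited row, and its single value does not separate them.

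**Figure D4:**
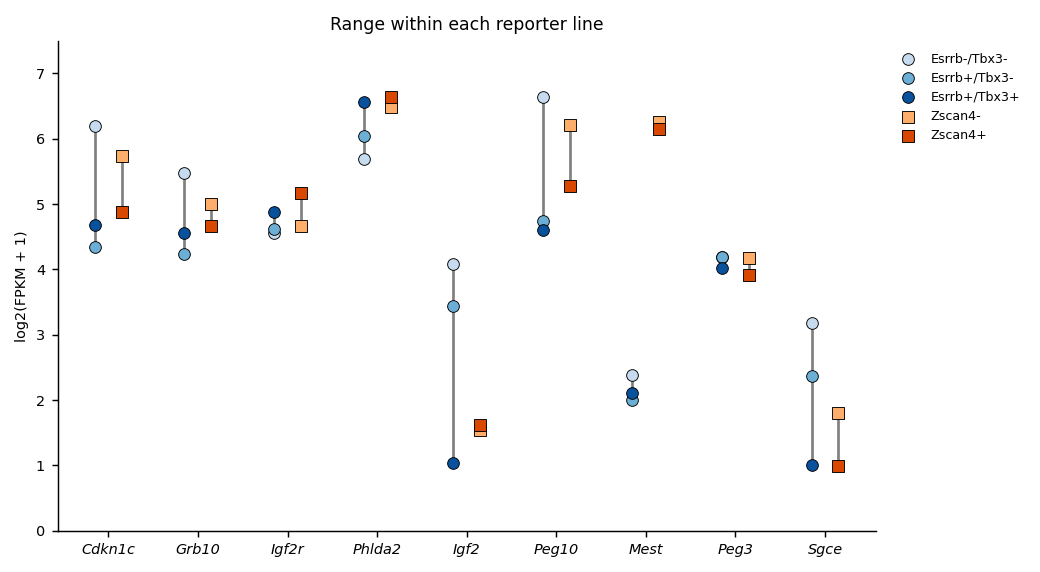
log2(FPKM + 1) of each gene in the Esrrb/Tbx3 line (circles) and the Zscan4 line (squares), with grey lines for the range within a line. The 2 lines of Mest lie 3.77 apart at their nearest fractions, and the ranges of the other 8 genes overlap.

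Across the lines, double-positive cells were also set against Zscan4-negative cells, the pair of fractions most alike over all rows (r = 0.984 across rows, a description, since rows are not independent). Mest (-4.14), Peg10 (-1.61) and Cdkn1c (-1.06) were at least 2-fold lower in double-positive cells, and Grb10 differed by -0.44. These were 3 of 9 genes, where 0.816% of all rows were lower, and none was higher, where 0.743% were. Peg10 held place 35 and Mest place 11 from the lowest row. For Peg10 and Cdkn1c the double-negative level of the same line lay above the Zscan4-negative level, by 0.43 and 0.46, so the lines overlapped and their difference depends on the fraction chosen. Cdkn1c stayed inside 2-fold, at -0.95, with a pseudocount of 5 FPKM.

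Peg3 and the Snurf row varied least. Peg3, which encodes a zinc finger protein, was at 17.2, 17.2, 15.3, 17.1 and 14.1 FPKM. Its largest difference between fractions next to each other in level was 0.15. The Snurf row, which covers the splicing protein gene Snrpn, was at 133, 93.1, 105, 102 and 110 FPKM. Its Esrrb step was -0.51, with a ratio of 0.700, and its other differences between neighbouring levels were 0.03 to 0.13, apart from 0.27 between double-negative and Zscan4-positive cells.

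The rows whose profile over the 5 fractions lay nearest to each gene were found among 9743 coding and long noncoding rows at 5 FPKM or more, by the Euclidean distance between log2(FPKM + 1) profiles centred on their own means. For Peg10 they included the carbonic anhydrase gene Car2 (0.25) and the transcription factor gene Sox11 (0.31). Car2 was at 108, 28.5, 25.7, 86.9 and 35.2 FPKM. For Cdkn1c they were the ephrin receptor gene Epha1 (0.26), Foxi3 (0.36) and Cachd1 (0.37), and Peg10 came at place 5 with a distance of 0.46. For Grb10 they were the integrin gene Itga3 (0.11), Nkx6-2 (0.22) and the growth factor gene Mdk (0.27).

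Igf2 and Sgce had other neighbours. Nearest to Igf2 were the caspase gene Casp8 (0.17), Shisa4 (0.18) and the phosphatase gene Dusp2 (0.20), and nearest to Sgce were Pxdn (0.17), Limd2 (0.18) and Satb1 (0.21). Each of these 6 rows also had its highest level in double-negative and the next in single-positive cells. Mest had no close row: the nearest were the Y-linked genes Uty (1.29), Ddx3y (1.73) and Eif2s3y (1.82). Eif2s3y was at 78.2 and 82.4 FPKM in the Zscan4 line and at 4.24, 2.77 and 0.106 FPKM in double-negative, single-positive and double-positive cells. Mest, at 3.32 FPKM in double-positive cells, did not share that last low value.

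Few neighbours in the imprinted clusters of these genes passed 2-fold. Of 27 listed, 26 had a row and 19 were compared. In the Esrrb step 1 was higher and none lower, where 1.82% and 1.43% of all rows were. In the Tbx3 step 2 were lower and none higher, where 6.94% and 0.346% of all rows were. None passed 2-fold in the Zscan4 sort, where 3.46% of all rows were higher and 0.875% lower. Between double-positive and Zscan4-negative cells none did either, where 0.743% of all rows were higher and 0.816% lower. From double-negative to double-positive cells 3 of the 19 were lower, H19 (-5.54), Slc22a3 (-2.49) and Airn (-1.15), against 12.2% of all rows, and 1 was higher, Cobl (2.34), against 3.81%. Airn reached 1 FPKM in double-negative cells only, and Slc22a3 in double-negative (4.98 FPKM) and single-positive cells (3.44 FPKM) only. Both were thus compared only because of fractions where they were high, and their part in these counts is a description only. Besides H19, the 1 past 2-fold at 5 FPKM or more was Cobl, next to Grb10, at 3.73, 15.1, 23.0, 19.3 and 16.3 FPKM, the reverse of Grb10 in the Esrrb step. The medians were -0.08 in the Esrrb step and 0.02 in the Tbx3 step, near those of all rows (-0.02 and 0.01).

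Of 22 further imprinted genes 20 had a row and 17 were compared. Zdbf2, a paternally expressed gene, was the 1 of 17 lower in the Esrrb step, where 1.43% of all rows were. It was at 5.27, 2.04, 2.29, 5.73 and 3.57 FPKM. From double-negative to double-positive cells 3 of the 17 were lower and none higher, where 12.2% and 3.81% of all rows were. Among them were Gnas and H13: Gnas, which encodes a G protein subunit, was at 380, 240, 144, 193 and 137 FPKM, and H13, a signal peptide peptidase gene, at 38.9, 28.4, 16.1, 13.6 and 13.4 FPKM. The other, Peg13, reached 1 FPKM in double-negative cells only, at 1.36, and was compared only because of that fraction. None of the 17 passed 2-fold in the Zscan4 sort, where 3.46% of all rows were higher and 0.875% lower.

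The IGF and insulin pathway, on which Igf2, Igf2r and Grb10 act, had 22 of 26 genes compared. In the Esrrb step 1 was higher, the RNA-binding protein gene Igf2bp2, at 29.6, 72.5, 75.2, 50.4 and 50.7 FPKM, and none was lower, where 1.82% and 1.43% of all rows were. In the Tbx3 step 4 of the 22 were lower, where 6.94% of all rows were, among them the IGF-binding protein genes Igfbp7 (25.0 against 0.880 FPKM) and Igfbp4 (64.3 against 5.78 FPKM), whose single-positive to double-negative ratios of 0.746 and 0.711 lay close to the fibroblast median. From double-negative to double-positive cells 6 of the 22 were lower and 1 higher, against 12.2% and 3.81% of all rows. Among the lower, Igfbp5 and Irs1 reached 1 FPKM in double-negative and single-positive cells only, and were compared only because of those fractions. In the Zscan4 sort 2 were higher, where 3.46% of all rows were, Igfbp3, at 9.18 in negative and 40.1 FPKM in positive cells, and Igfbp2, at 265 and 606 FPKM. Igf1r, the receptor through which IGF2 signals, was at 10.2, 5.53, 3.51, 3.83 and 5.27 FPKM.

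Among 14 cyclin-dependent kinase inhibitors and G1 cyclins, none passed 2-fold in the Esrrb step, where Cdkn1c differed by -1.86. Of all rows, 1.82% were higher and 1.43% lower in that step. Cdkn1b and Cdkn1a, its closest relatives, differed little over the same line: Cdkn1b was at 43.7, 42.4 and 39.9 FPKM and Cdkn1a at 28.5, 28.7 and 22.9 FPKM. Ccnd2, a D-type cyclin gene, was the 1 of 14 lower in the Zscan4 sort, where 0.875% of all rows were. It was at 13.4 FPKM in negative and 6.0 FPKM in positive cells, and at 29.5, 15.3 and 4.58 FPKM in the other line. Cdkn2c and Ccnd2 were the 2 of 14 lower in the Tbx3 step, where 6.94% of all rows were. In the Esrrb and Tbx3 line Cdkn2c was at 8.07, 5.84 and 0.669 FPKM and Cdk6 at 16.3, 13.7 and 7.53 FPKM.

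Of 15 genes listed for roles in imprints or in adding or removing DNA methylation, 1 was higher and 2 were lower in the Esrrb step, where 1.82% and 1.43% of all rows were. Dppa3, which protects maternal methylation in the zygote, was at 8.46, 31.3, 49.6, 30.3 and 34.8 FPKM, and Zfp57 at 59.6, 112, 159, 159 and 141 FPKM. The de novo methyltransferase gene Dnmt3a was at 42.1, 19.8, 15.9, 36.4 and 16.0 FPKM. It was thus high in double-negative and Zscan4-negative cells, as Peg10 and Cdkn1c were. Zfp57 was at 159 FPKM in both double-positive and Zscan4-negative cells, between which Mest differed by -4.14. These are RNA levels, and whether Zfp57 bears on Mest was not tested. Tet3, which encodes a 5-methylcytosine dioxygenase, was at 5.65, 3.23, 0.770, 1.68 and 1.14 FPKM.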

How the data were processed

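Total RNA of sorted fractions was sequenced in 10 libraries, 2 for each of 5 fractions. TopHat2 2.0.14, Cuffdiff 2.2.1, Cufflinks, bcl2fastq 1.8.4 and build mm10 are named in the submitters' processing notes. The annotation, strand setting and merging method were not given in the sources used here. The authors deposited FPKM values, 1 per row and fraction, although the table is titled as counts. FPKM hides depth, so no count test, interval or floor was possible.

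Rows were compared as differences of log2(FPKM + 1) if at 1 FPKM or more in at least 1 fraction, with a size rule of 2-fold. Rows of 1 symbol were kept apart. A line was called apart where all its fractions lay above, or all below, those of the other. The members, lists and rules were chosen with earlier results of these data known. Named were all members, up to 6 genes of each imprinted list and up to 4 of each other list at 5 FPKM or more and past 2-fold, and the 3 nearest rows per member that spanned 2-fold. A gene this rule picked is not reported here. Igf1r, Cdkn1a, Cdkn1b, Igfbp2, Igfbp5, Irs1, Peg13, Dnmt1, Dnmt3b, the antisense and cluster partners and the marker genes were added outside that rule after values were seen. Alternatives covered the pseudocount, the filter, 2 column scalings, summed rows and fewer fractions in the comparison of the lines. Python 3.11.15, pandas 2.3.3, numpy 2.4.6 and matplotlib 3.10.9 were used, and the steps were tested on simulated data.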

Additional observations from a re-analysis of the deposited data

How the results depend on the processing

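Of 315 values of single genes under the alternatives, none changed direction among those past 2-fold, and 309 kept their side of 2-fold and their sign. The count of genes past 2-fold in the Zscan4 sort was 1 in place of 0 with a pseudocount of 0.1 FPKM (Sgce, at -1.26), and between double-positive and Zscan4-negative cells it was 4 in place of 3 (Sgce, at -1.23). In the Tbx3 step it was 1 in place of 2 with a pseudocount of 5 FPKM, where Sgce differed by -0.61. The count of genes whose lines did not overlap was 1 with all fractions, 4 without the double-negative fraction, where 36.6% of all rows did not overlap, and 5 without the double-negative and single-positive fractions, where 63.1% did not. These settings leave out fractions and so ask for less; they were chosen after seeing the data. The scaling to equal FPKM totals moved the median of all rows by -0.11 in double-positive minus double-negative cells. No paired analysis was possible because each fraction has 1 deposited value, and for the same reason no library could be left out.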

Other observations

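Of the 14 rows whose reporter lines were apart by at least 2-fold, 7 were higher in the Zscan4 line and 7 in the Esrrb and Tbx3 line. Among the former were Mest and 4 Y-linked rows, Eif2s3y, Ddx3y, Uty and Uba1y. Among the latter were Rnf19a, at 58.4, 33.2 and 34.9 FPKM in double-negative, single-positive and double-positive cells against 6.20 and 6.64 FPKM in Zscan4-negative and Zscan4-positive cells, Pck2, which encodes a mitochondrial enzyme of gluconeogenesis, at 35.3, 24.7 and 24.1 against 10.5 and 9.83 FPKM, and Glipr2, at 36.4, 38.6 and 38.8 against 15.9 and 14.5 FPKM. These were named after their values were seen. Kdm5d, also Y-linked, was at 1.11, 0.921 and 0.00908 FPKM in the first line and 0.0384 and 0.104 FPKM in the Zscan4 line. In double-positive cells, where fibroblast markers were low, each of the Y-linked rows named here was at 0.106 FPKM or less.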
